A study of Mus musculus with 12 samples.

Results

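The REV-ERB, PAR bZIP and DEC genes are clock outputs: genes for transcription factors that the circadian clock switches on and off and that in turn act on clock genes and on other daily genes. They were taken as 8 named genes, Nr1d1 and Nr1d2 (REV-ERB), Dbp, Tef and Hlf (PAR bZIP), Nfil3, their bZIP opponent, and Bhlhe40 and Bhlhe41 (DEC). All 8 were found among the 20201 genes of the deposited table. They were chosen by name, with no threshold on a measured value, though earlier results of these data were known. RNA came from mouse myotubes, the fused muscle fibres that form in culture from myoblasts, here primary cells of mice with a floxed Bmal1 gene. Bmal1 encodes the clock activator BMAL1 and is listed under its older symbol Arntl. The cells had received adenovirus carrying Cre, which removes the floxed part of the gene, or an empty adenovirus for 48 hours, and then spent 6 hours in 21% or 1% oxygen.

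Each of the 12 libraries carries 1 of 2 labels. Myotube1 to 3 and Myotube7 to 9 are labelled wildtype with normoxia (21% O2). Myotube4 to 6 and Myotube10 to 12 are labelled Bmal1 knockout with hypoxia (1% O2 for 6h). All 12 come from floxed cells given an adenovirus, so the wildtype label stands for floxed cells with the empty virus, and the virus differs wherever the label does. The values below are given for the 4 runs of titles, 3 libraries each. Myotube1 to 6 are called the lower-numbered set and Myotube7 to 12 the higher-numbered set. The labels name no animal, culture or batch, so every p-value reflects variation among libraries alone, possibly technical.

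In the mammalian clock, BMAL1 pairs with CLOCK or NPAS2 and binds E-boxes, short DNA motifs found at many clock genes. This pair drives the period and cryptochrome genes, whose proteins stop the pair, and it also drives the REV-ERB, PAR bZIP and DEC genes. REV-ERB proteins are nuclear receptors that recruit corepressors to ROR elements, among others at Bmal1 itself, where the ROR receptors activate. The PAR bZIP activators and the repressor NFIL3 compete for D-box motifs, and the DEC proteins repress at E-boxes. In skeletal muscle, REV-ERB receptors are known for their part in mitochondrial content and autophagy.

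The targeted gene followed the genotype label. Arntl (chr7:113207465-113314126, plus strand) stood at 133, 156 and 138 normalized counts in Myotube1 to 3, at 45.3, 42.3 and 41.7 in Myotube4 to 6, at 179, 178 and 155 in Myotube7 to 9, and at 42.9, 47.3 and 48.6 in Myotube10 to 12. Its 6 knockout values lay below its 6 wildtype values. Genes that low oxygen induces did not follow the oxygen label. The summed level of 16 of them was 8389 to 9070 normalized counts in the lower-numbered set and 29142 to 30396 in the higher-numbered set, whichever the label. No oxygen level was therefore assigned, and the sets are named by their titles only. The libraries held 6376584 to 12463339 reads, of which 7 very abundant genes, mostly ribosomal and other non-coding RNA, took 48.3% to 64.7%. Myotube2, with the fewest reads in all, listed 29.6% of genes at 0, where the lowest share in a library was 13.0%. Outside the abundant genes Myotube10 held fewer reads, 2352327 against 2522403 in Myotube2, and listed 21.9% of genes at 0. Why Myotube2 held more genes at 0 was not tested. The level of 12 myotube marker genes was read. They summed to 19864 to 24771 normalized counts under the wildtype label and to 34144 to 38045 under the knockout label. In the mean of both sets 8 of the 12 were higher in knockout, 2 were lower and 2 did not pass. Of all tested genes 16.2% were higher and 14.5% lower there. Fibroblast markers, given further below, summed to more, 72671 to 105267. Neither sum gives the share of cells of a type.

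The REV-ERB pair fell furthest of all the members. Nr1d1 encodes REV-ERB alpha (ENSMUSG00000020889, chr11:98767932-98775333, minus strand, mm10). It stood at 66.0, 86.7 and 83.2 normalized counts in Myotube1 to 3 and at 7.42, 7.47 and 11.5 in Myotube4 to 6. In the higher-numbered set it stood at 95.7, 79.2 and 106 in Myotube7 to 9 and at 3.90, 3.38 and 13.4 in Myotube10 to 12. The labels did not overlap in either set. The values of Myotube10 and Myotube11 rest on 2 and 3 reads and lie at or below the floor of 3 reads there, 5.85 and 3.38 normalized counts. The log2 difference of knockout minus wildtype was -3.04 in the lower-numbered set (95% confidence interval -3.89 to -2.18, limma adjusted p = 0.000212). It was -3.80 in the higher-numbered set (-4.65 to -2.94, adjusted p = 6.03e-05). These fits use log2(normalized count + 1). From the reads alone, 28 against 220 in the lower-numbered set gave a level 8.66-fold lower (exact 95% interval 5.83 to 13.3), and 19 against 391 in the higher-numbered set gave 12.05-fold lower (7.61 to 20.2). Both intervals cover counting error only. Of those 19 reads 14 came from Myotube12, and without it the level was 26.2-fold lower, on 5 reads (11.1 to 81.1), so the size of this fall is uncertain.

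Nr1d2 encodes REV-ERB beta (ENSMUSG00000021775, chr14:18204054-18239127, minus strand), the second receptor of the family with an overlapping role. It stood at 213, 208 and 192 normalized counts in Myotube1 to 3 and at 19.8, 11.2 and 16.0 in Myotube4 to 6. It stood at 221, 231 and 190 in Myotube7 to 9 and at 21.4, 16.9 and 24.8 in Myotube10 to 12. Every library labelled knockout was thus far below every library labelled wildtype, and all 12 were above their floor of 3 reads. The log2 difference was -3.65 (95% confidence interval -4.11 to -3.20, limma adjusted p = 4.98e-07) in the lower-numbered set and -3.30 (-3.75 to -2.84, adjusted p = 1.69e-06) in the higher-numbered set. In the mean of both sets Nr1d2 had the fourth lowest and Nr1d1 the fifth lowest log2 difference of the 12553 genes tested, -3.48 (SE 0.15) and -3.42 (SE 0.28).

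Per kilobase of exon, Nr1d2 was the higher of the pair in both wildtype runs. In Myotube1 to 3 Nr1d1 had 25.6 and Nr1d2 37.7 normalized counts per kb, and in Myotube7 to 9 30.4 and 39.6. In Myotube4 to 6 they had 2.86 and 2.89, and in Myotube10 to 12 2.23 and 3.89. The sum of both receptors fell from 63.3 ± 2.94 to 5.75 ± 1.14 per kb in the lower-numbered set and from 69.9 ± 1.87 to 6.13 ± 2.47 in the higher-numbered set (SD, n = 3 each). The Nr1d1 share of this sum averaged 40.3% and 43.4% in the 2 wildtype runs and 49.9% and 33.0% in the 2 knockout runs, where it rests on few reads.

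**Figure D1:**
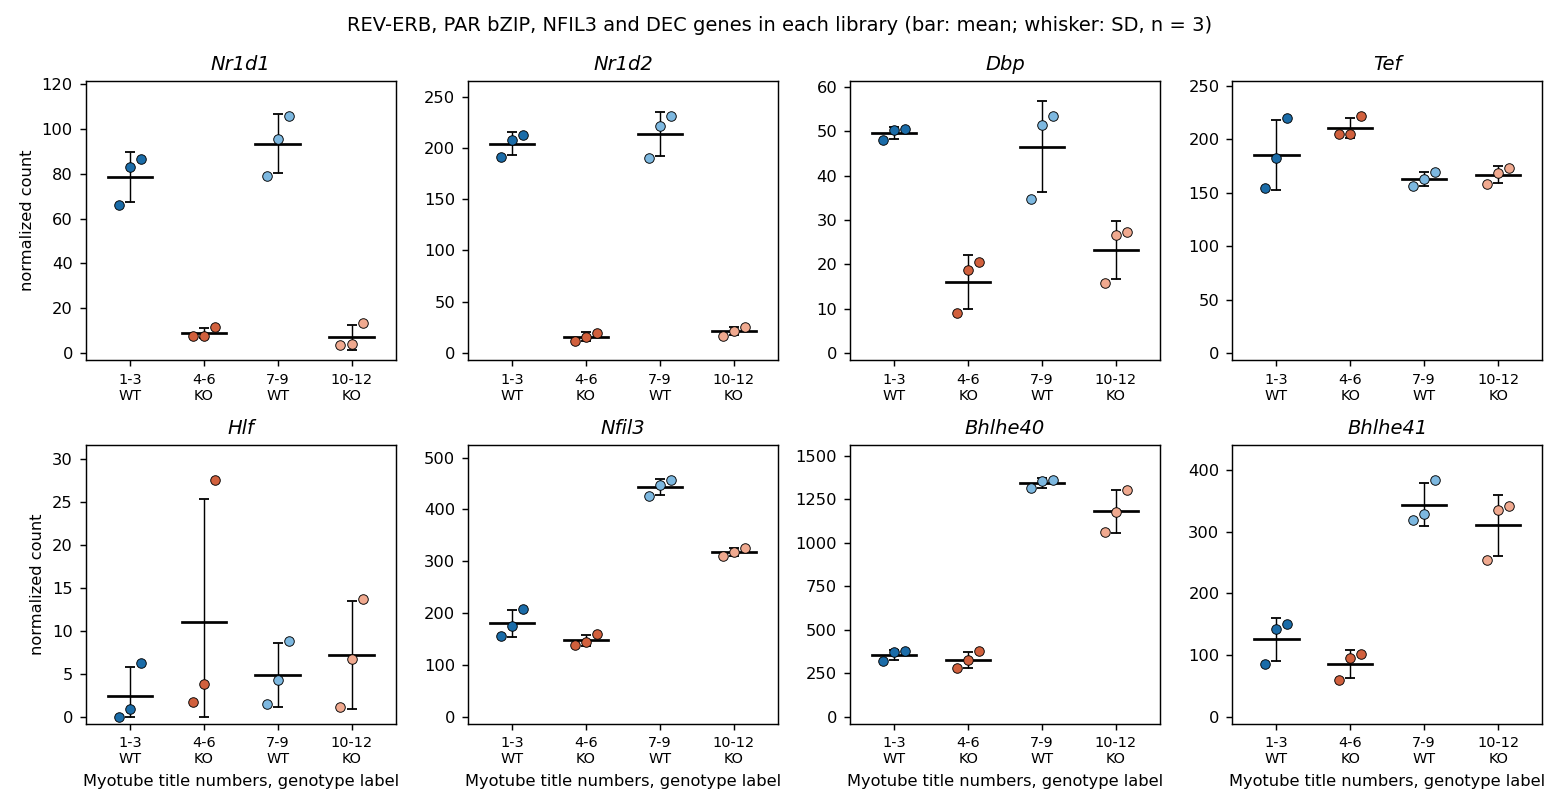
Normalized counts (y axes) of the 8 members in the 12 libraries, by run of titles (x axes, WT for the wildtype and KO for the knockout label). Points are libraries, the bar is the mean and the whisker the SD (n = 3, cut at 0), and each panel has its own scale. Nr1d1, Nr1d2 and Dbp separate by genotype label, whereas Nfil3, Bhlhe40 and Bhlhe41 separate by set: Bhlhe40 lies at 279 to 375 in the lower-numbered and at 1061 to 1360 in the higher-numbered set.

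Dbp encodes the D-box binding activator (ENSMUSG00000059824, chr7:45705088-45710203, plus strand), the PAR bZIP member with the largest daily swing in most mouse tissues. It stood at 50.2, 48.0 and 50.5 normalized counts in Myotube1 to 3 and at 9.06, 18.7 and 20.4 in Myotube4 to 6. It stood at 53.3, 34.7 and 51.4 in Myotube7 to 9 and at 27.3, 15.8 and 26.7 in Myotube10 to 12. The labels did not overlap in either set, although the gap was narrow in the higher-numbered one, from 27.3 to 34.7. Dbp fell 3.12-fold in the lower-numbered set (log2 difference -1.64, 95% confidence interval -2.34 to -0.94, limma adjusted p = 0.0036). In the higher-numbered set the log2 difference was -0.98 (-1.68 to -0.28), with an adjusted p of 0.0554. That difference passed when Myotube2 or Myotube4, which are not in it but enter the shared estimate of the spread, was left out (adjusted p = 0.0392 and 0.0272). It also passed with edgeR (0.0393), DESeq2 (0.0267) and a pseudocount of 10 (0.0345). Removal of the abundant genes, which moved the median of all genes to -0.15, also gave a pass (0.0275). It did not pass with no filter (0.0900), with upper-quartile scaling (0.0580) or with a pseudocount of 0.5 (0.0580). Leaving out 1 library each, the log2 difference ran from -1.18 to -0.74 and the adjusted p from 0.0272 to 0.188. The mean of both sets was -1.31 (SE 0.23, adjusted p = 0.000837), 2.48-fold lower.

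Tef and Hlf, the other PAR bZIP genes, gave no call between labels. TEF and HLF bind the same D-box as DBP. Tef (ENSMUSG00000022389, chr15:81802421-81826863, plus strand) stood at 154, 220 and 182 normalized counts in Myotube1 to 3 and at 205, 221 and 205 in Myotube4 to 6. It stood at 163, 170 and 156 in Myotube7 to 9 and at 158, 169 and 174 in Myotube10 to 12. The labels overlapped in both sets. The log2 difference in the mean of both sets was 0.11 (95% confidence interval -0.07 to 0.30, limma adjusted p = 0.350), which turned to -0.040 without the abundant genes. In the lower-numbered set it was 0.20 (adjusted p = 0.287), and without Myotube2 0.33 (adjusted p = 0.0466). Hlf (ENSMUSG00000003949, chr11:90336536-90390895, minus strand) was close to the limit of detection and was not tested. It had 1, 4 and 0 reads in Myotube1 to 3, 2, 3 and 31 in Myotube4 to 6, 12, 6 and 2 in Myotube7 to 9, and 7, 1 and 7 in Myotube10 to 12. Myotube6 alone held 31 of the 36 reads of its run, and the runs overlapped.

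The PAR bZIP genes thus differed in level as well as in response. Per kilobase of exon, Dbp and Tef stood at 16.5 and 23.6 normalized counts in Myotube1 to 3 and at 15.5 and 20.7 in Myotube7 to 9, while Hlf stood at 0.353 and 0.720. In the knockout runs Dbp had 5.36 and 7.77 per kb and Tef 26.8 and 21.2. The Dbp share of the summed level of the 3 genes averaged 41.3% and 41.7% in the wildtype runs and 15.5% and 25.6% in the knockout runs.

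**Figure D2:**
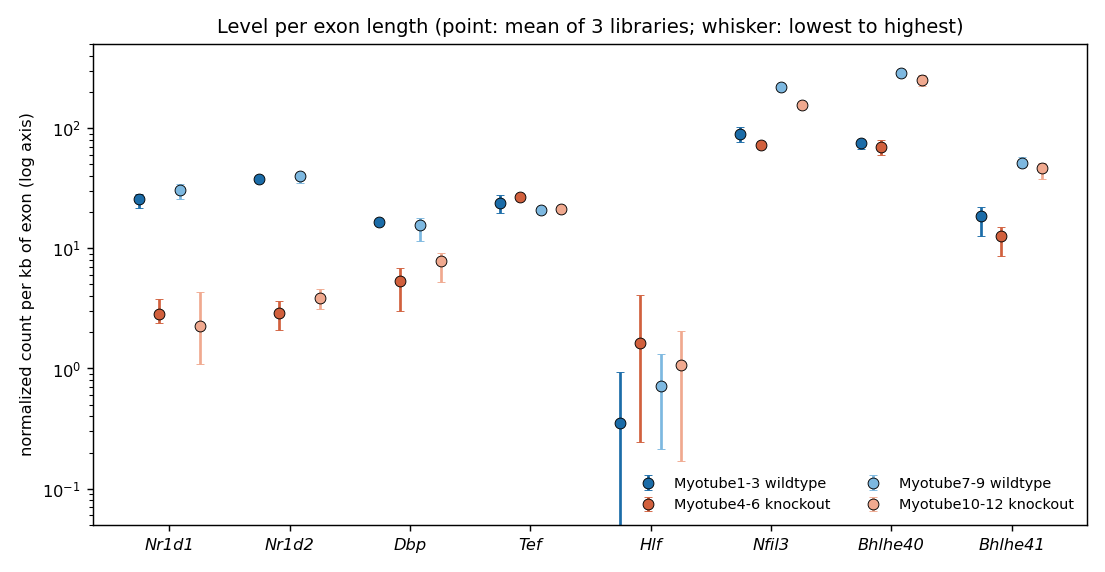
Level of each member per kilobase of exon (normalized counts per kb, log axis) in the 4 runs of titles. Points are means of 3 libraries and whiskers run from the lowest to the highest library; Hlf is listed at 0 in 1 library of Myotube1 to 3, so that its whisker leaves the axis. By their means, Nfil3 and Bhlhe40 lie above the other members in the wildtype runs, and Hlf lies below the others in every run. In both knockout runs the whisker of Hlf overlaps that of Nr1d1.

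The promoters of the 3 genes that fell in the mean of both sets by more than 1 on the log2 scale are shown. The motifs searched in them are listed after the sequences. They are RefSeq sequences of GRCm38.p6, 5′ to 3′ on the strand of the gene, and end before the first base of the gene model. The spans are chr11:98775378-98775627 for Nr1d1 (minus strand), chr14:18239128-18239356 for Nr1d2 (minus strand) and chr7:45704997-45705087 for Dbp (plus strand). Capitals mark matches to a searched motif.
Nr1d1: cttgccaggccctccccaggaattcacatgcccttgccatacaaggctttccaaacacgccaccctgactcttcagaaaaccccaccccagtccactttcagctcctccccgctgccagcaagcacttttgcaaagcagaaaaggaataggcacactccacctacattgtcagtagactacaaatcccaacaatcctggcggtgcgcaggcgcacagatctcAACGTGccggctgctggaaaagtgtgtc
Nr1d2: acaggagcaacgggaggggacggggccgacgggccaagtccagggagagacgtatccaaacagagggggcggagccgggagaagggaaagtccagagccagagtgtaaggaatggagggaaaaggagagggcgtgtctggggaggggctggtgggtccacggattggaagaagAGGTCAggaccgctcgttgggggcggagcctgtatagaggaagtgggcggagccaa
Dbp: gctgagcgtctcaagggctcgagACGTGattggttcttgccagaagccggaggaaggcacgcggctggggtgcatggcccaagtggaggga
Searched on both strands in the 250 bases before the RefSeq start were the E-box CACGTG, its variant CACGTT, the D-box TTATGTAA, the ROR half-site AGGTCA and ACGTG, the core that HIF binds and that lies within the E-box. Nr1d1 held CACGTT on the other strand, 28 bases before the start, a variant present in 3.85% of 32851 mouse promoters. It appears above as AACGTG, with ACGTG inside it. Nr1d2 held AGGTCA 77 bases before the start, as did 14.0% of promoters anywhere in the window. Of the 5 motifs Dbp held ACGTG only, 227 bases before the start, a motif of 16.6% of promoters. None of the 7 members with a listed promoter held TTATGTAA (0.819% of promoters), and Hlf held none of the 5. A match describes letters in this window and no binding.

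Nfil3 encodes the D-box repressor also called E4BP4 (ENSMUSG00000056749, chr13:52967209-52981073, minus strand), whose gene is itself known to be repressed by REV-ERB. It stood at 175, 156 and 208 normalized counts in Myotube1 to 3 and at 143, 159 and 138 in Myotube4 to 6. It stood at 457, 426 and 448 in Myotube7 to 9 and at 310, 326 and 318 in Myotube10 to 12. Nfil3 thus separated by set in both labels, and by label in the higher-numbered set only. It was higher in the higher-numbered set by a log2 difference of 1.31 in the libraries labelled wildtype (95% confidence interval 1.07 to 1.54, limma adjusted p = 2.82e-06) and of 1.11 in those labelled knockout (0.88 to 1.34, adjusted p = 9.55e-06). Between labels it fell 1.39-fold in the higher-numbered set (log2 difference -0.48, adjusted p = 0.00897). The log2 difference was -0.28 in the lower-numbered set (adjusted p = 0.0848), and -0.38 without Myotube2, which passed (adjusted p = 0.0167), as it did without the abundant genes (-0.44, adjusted p = 0.0157). The mean of both sets was -0.38 (SE 0.08, adjusted p = 0.00218), but without a term for the set it did not pass (adjusted p = 0.492). Set against the 3 PAR bZIP genes per kilobase of exon, Nfil3 made up 68.5% and 68.3% of the summed level of the 4 genes in Myotube1 to 3 and 4 to 6, and 85.6% and 83.9% in Myotube7 to 9 and 10 to 12.

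Both DEC genes rose between the sets, and neither passed the test between labels. Bhlhe40 encodes DEC1, a bHLH repressor of the clock activators that is also a known HIF target (ENSMUSG00000030103, chr6:108660629-108666925, plus strand). It stood at 369, 375 and 318 normalized counts in Myotube1 to 3 and at 323, 374 and 279 in Myotube4 to 6. It stood at 1313, 1360 and 1357 in Myotube7 to 9 and at 1061, 1175 and 1304 in Myotube10 to 12. In the higher-numbered set Bhlhe40 was 3.80-fold higher in the libraries labelled wildtype (log2 difference 1.93, 95% confidence interval 1.69 to 2.16, limma adjusted p = 1.20e-07). It was 3.63-fold higher in those labelled knockout (1.86, 1.62 to 2.10, adjusted p = 1.27e-07). The lowest of the 6 higher-numbered libraries lay above the highest of the 6 lower-numbered ones. Knockout minus wildtype was -0.16 in the mean of both sets (95% confidence interval -0.33 to 0.01, adjusted p = 0.144). It passed when Myotube5 was left out (-0.21, adjusted p = 0.0486). It also passed with the abundant genes removed (-0.31, adjusted p = 0.00764), a setting that moves the median of all genes to -0.16. In the higher-numbered set Bhlhe40 did not overlap between labels, with a log2 difference of -0.19 (adjusted p = 0.276; -0.35 and 0.045 without the abundant genes).

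Bhlhe41 encodes DEC2, the closest relative of DEC1 (ENSMUSG00000030256, chr6:145858243-145865558, minus strand). It stood at 142, 85.2 and 149 normalized counts in Myotube1 to 3 and at 101, 58.5 and 94.95 in Myotube4 to 6. It stood at 384, 319 and 328 in Myotube7 to 9 and at 335, 253 and 342 in Myotube10 to 12. Myotube2 and Myotube5 were the lowest of their runs. The sets did not overlap in either label, with log2 differences of 1.48 in wildtype (95% confidence interval 0.97 to 1.99, limma adjusted p = 0.00076) and 1.88 in knockout (1.37 to 2.39, adjusted p = 9.33e-05). The labels overlapped in both sets. Knockout minus wildtype was -0.35 in the mean of both sets (-0.72 to 0.01, adjusted p = 0.128) and -0.55 in the lower-numbered set (-1.06 to -0.04, adjusted p = 0.120). Both passed without Myotube2 (-0.48 and -0.81, adjusted p = 0.0152 and 0.0142). Both also passed once the abundant genes had been removed (-0.51 and -0.71, adjusted p = 0.0309 and 0.0474). Per kilobase of exon, Bhlhe40 made up 80.1%, 84.3%, 84.8% and 84.4% of the summed level of the pair in the 4 runs, in the order of titles.

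The Bhlhe41 promoter is shown because it holds the exact E-box, which also contains the HIF core ACGTG on both strands. It spans chr6:145865559-145865670 (minus strand), RefSeq GRCm38.p6, with the E-box in capitals, 153 bases before the RefSeq start.
Bhlhe41: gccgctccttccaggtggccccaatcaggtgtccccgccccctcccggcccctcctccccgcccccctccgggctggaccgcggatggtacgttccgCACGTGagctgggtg
CACGTG was present in 6.02% of the promoters. Tef, not called with label or set, held it as well, 127 and 138 bases before its 2 listed starts. Nfil3 held AGGTCA on the other strand, 12 bases before its start. Bhlhe40 had no entry in the promoter table.

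**Figure D3:**
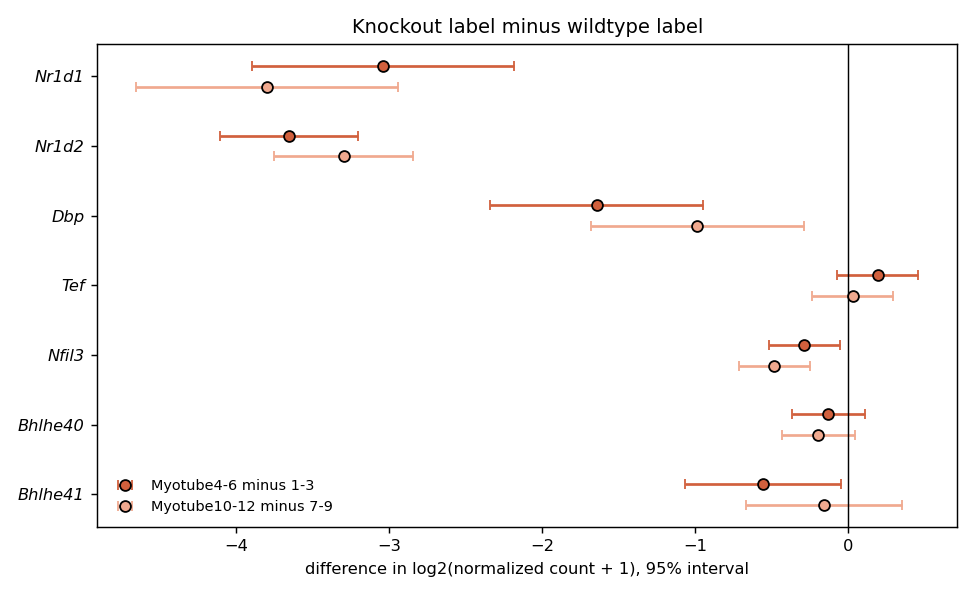
Log2 difference of knockout minus wildtype (x axis, on log2 of the normalized count + 1) for the 7 tested members, in the lower-numbered set (dark) and the higher-numbered set (light), with 95% confidence intervals from limma. Nr1d1 and Nr1d2 lie between -3.80 and -3.04 in both sets and Dbp at -1.64 and -0.98, and the intervals of Tef and Bhlhe40 include 0 in both.

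Counted over the 7 tested members, 4 fell, 0 rose and 3 did not pass in the mean of both sets, where 30.7% of the 12553 tested genes were called, 16.2% higher and 14.5% lower. In Myotube4 to 6 against 1 to 3, 3 fell (Nr1d1, Nr1d2 and Dbp), with 18.8% of genes called, 10.8% higher and 7.97% lower. In Myotube10 to 12 against 7 to 9, 3 fell (Nr1d1, Nr1d2 and Nfil3), with 16.5% called, 8.84% higher and 7.64% lower. No tested member rose in any of these. The median log2 difference of the 7 was -0.38, -0.55 and -0.48, beside a median of all genes within 0.01 of 0. The genotype calls of all genes shifted with scaling: 2031 were higher and 1826 lower in the mean of both sets, and 1042 and 3409 when the abundant genes were left out. Values that did not overlap, lower in knockout, were seen in 3 of the 8 members in the lower-numbered set (16.5% of tested genes) and in 5 of the 8 in the higher-numbered set (19.2%). Over both sets together the 6 knockout values of Nr1d1, Nr1d2 and Dbp each lay below the 6 wildtype values, which held for 5.38% of genes.

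Between sets, 3 of the 7 tested members rose (Nfil3, Bhlhe40 and Bhlhe41) and 0 fell in the libraries labelled wildtype, where 16.8% of genes were called, 9.79% higher and 6.96% lower. The same 3 rose in the libraries labelled knockout, with 19.0% called, 11.2% higher and 7.89% lower. These 3 did not overlap between sets in either label, where 17.6% of genes in wildtype and 19.9% in knockout were higher without overlap. The balance of calls over all genes turned when the abundant genes were left out, to 927 higher and 1425 lower in wildtype (1229 and 874 before) and to 1123 and 1625 in knockout (1401 and 990 before). The 4 others had intervals that include 0 in wildtype, with log2 differences of 0.25 for Nr1d1 (95% confidence interval -0.61 to 1.10), 0.06 for Nr1d2 (-0.39 to 0.52), -0.12 for Dbp (-0.81 to 0.58) and -0.17 for Tef (-0.44 to 0.10). In knockout, Tef lay lower in the higher-numbered set without overlap, as did 19.9% of genes, with a log2 difference of -0.33 (-0.60 to -0.07, limma adjusted p = 0.0793). It passed without Myotube1 (adjusted p = 0.0432), without Myotube2 (0.0188) and without the abundant genes (-0.43, 0.0235). Nr1d1 in knockout was at -0.51 (-1.37 to 0.34), and at -1.06 without Myotube12, which passed (adjusted p = 0.0281), on the few reads given above. Dbp in knockout was at 0.54 (-0.15 to 1.24) and Nr1d2 at 0.42 (-0.03 to 0.88).

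**Figure D4:**
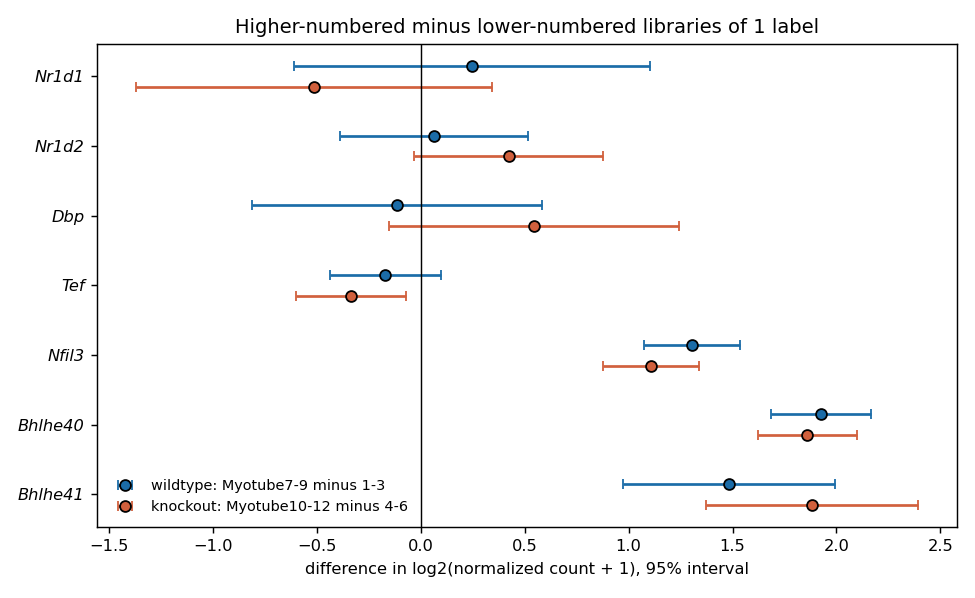
Log2 difference of the higher-numbered minus the lower-numbered set (x axis, on log2 of the normalized count + 1) for the 7 tested members, separately in the libraries labelled wildtype and knockout, with 95% confidence intervals from limma. Bhlhe40, Bhlhe41 and Nfil3 lie between 1.11 and 1.93 in both labels. The intervals of Nr1d1, Nr1d2 and Dbp include 0 in both.

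Whether the genotype difference itself differed between sets was tested as an interaction, and 0 of the 7 tested members passed by limma (adjusted p from 0.678 to 0.901). The largest estimates among them were -0.76 for Nr1d1 (95% confidence interval -1.97 to 0.45) and 0.66 for Dbp (-0.33 to 1.65), so that a 2-fold change of the difference lies within both intervals. Over all genes 1 passed (0.00797%), mt-Co2, and 1070 had an unadjusted p under 0.05. The interaction of Nfil3, called in one set and not in the other, was -0.20 (-0.53 to 0.13, adjusted p = 0.702).

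The clock genes around the members moved in several patterns. Of the activators and ROR receptors, 5 of 7 were tested. Npas2, which can replace Clock as the partner of BMAL1, rose in the mean of both sets by a log2 difference of 1.51 (limma adjusted p = 2.08e-05) and in each set (1.70 and 1.33). Arntl fell by 1.78 on the log2 scale (adjusted p = 7.63e-08). Clock, Rora and Arntl2 did not pass (0.03, 0.07 and -0.41). For Clock the sets went opposite ways, and it passed in neither. Its knockout values were 298 to 326 normalized counts in Myotube4 to 6, against 269 to 287 in Myotube1 to 3. They were 216 to 248 in Myotube10 to 12, against 250 to 260 in Myotube7 to 9. Rora, the activator at ROR elements, was higher in the higher-numbered set in both labels (1.28 and 1.35, adjusted p = 1.83e-06 and 9.41e-07), while Clock was lower there in knockout (-0.40, adjusted p = 0.00469).

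Of the 6 period, cryptochrome and Ciart repressors, Cry1 and Per2 rose and Per3 fell with the knockout label in the mean of both sets. Cry1 rose by 1.38 on the log2 scale (limma adjusted p = 7.07e-05) and in both sets, and Per2 by 1.00 (adjusted p = 0.00866), though in neither set alone (adjusted p = 0.0645 and 0.073). Per3 fell by 1.87 (adjusted p = 0.000243). Its knockout values rest on only 5 to 9 reads per library, at 5.32 to 9.75 normalized counts, where wildtype stood at 19.3 to 74.3. Per1, Cry2 and Ciart did not pass between labels (-0.17, 0.21 and 0.65). Cry2 was higher in the higher-numbered set in both labels, by 1.48 and 1.63 (adjusted p = 1.04e-05 and 3.78e-06). Per1 and Ciart were higher there in wildtype (1.13 and 3.71, adjusted p = 0.00714 and 0.0159) and did not pass in knockout (0.74 and 2.74, adjusted p = 0.0539 and 0.0598). Ciart stood at 0 in Myotube2 and at 28.17 and 28.03 in Myotube1 and Myotube3, and at 122 to 124 in Myotube7 to 9. Without Myotube2 its log2 difference was 2.09 in wildtype (adjusted p = 6.13e-06), and the 2.74 in knockout passed (adjusted p = 1.04e-07). The latter also passed without Myotube1 or Myotube3 (adjusted p = 0.0405 and 0.0409). In knockout Ciart went from 15.7 to 22.4 in Myotube4 to 6 to 125 to 165 in Myotube10 to 12, without overlap.

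**Figure D5:**
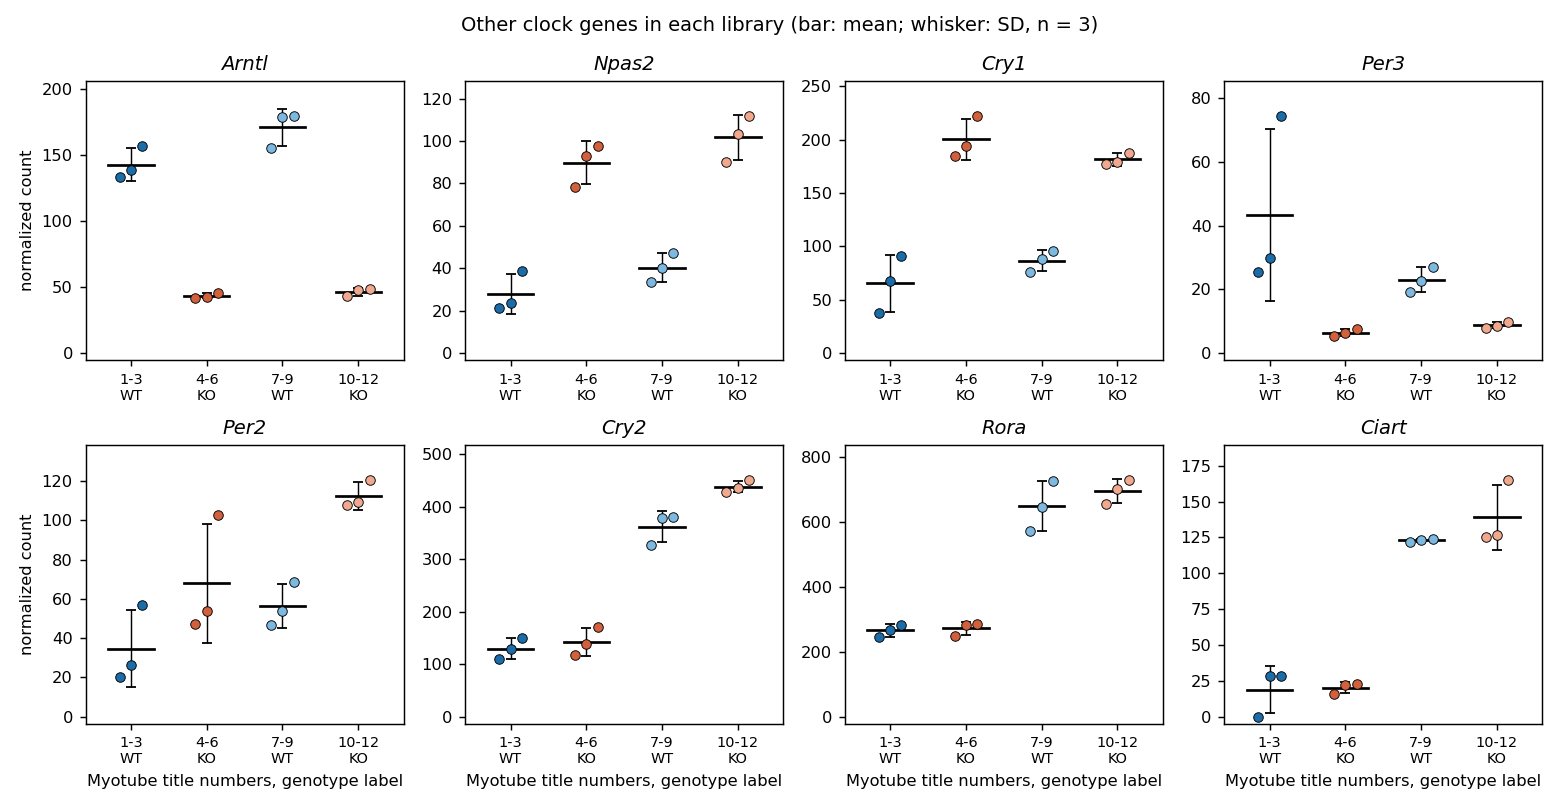
Normalized counts (y axes) of clock genes other than the members in the 12 libraries, by run of titles (x axes, WT for the wildtype and KO for the knockout label), with the mean and SD (n = 3, cut at 0). Arntl, Npas2, Cry1 and Per3 separate by genotype label. Rora and Cry2 separate by set: Cry2 lies at 110 to 171 in the lower-numbered and at 328 to 451 in the higher-numbered set.

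Lists of genes known to work with or under the members changed in part in the mean of both sets, where 16.2% of all tested genes rose and 14.5% fell. Their counts are given as a description against these shares. Of 5 tested genes with ROR elements known as REV-ERB targets, Npas2 and Cry1 rose, Arntl and Nfil3 fell and Clock did not pass. Arntl is also the deleted gene, and Nfil3 is itself a member. Of 6 tested D-box clock genes, Per2 rose, Nr1d1, Nr1d2 and Per3 fell, and Per1 and Rora did not pass. Nr1d1 and Nr1d2 are members, so their falls are those already given above. Of 3 tested genes known as PAR bZIP targets in mouse liver, Alas1, the first enzyme of heme synthesis, rose (0.32, limma adjusted p = 0.0131), and 2 did not pass. Of 5 tested C/EBP factors, the bZIP relatives of the PAR family, 4 fell and 0 rose, Cebpa by 0.85 and Cebpg by 0.59 on the log2 scale (adjusted p = 0.000942 and 0.00126). Of 5 tested HES and HEY repressors, relatives of the DEC proteins, Heyl rose (0.71, adjusted p = 0.0238) and 4 did not pass. Of 9 tested clock kinases and ligases, 3 fell and 0 rose, among them Siah2, a ligase for REV-ERB alpha, by 0.56 and Btrc, a period protein ligase, by 0.38 on the log2 scale (adjusted p = 0.00146 and 0.0194).

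Markers of several cell types included genes called between labels, read beside 16.2% of all tested genes higher and 14.5% lower, and their part in the members' differences was not tested. Fibroblast markers summed to 76851 to 84108 normalized counts in Myotube1 to 3 and to 72671 to 86246 in Myotube4 to 6. They summed to 78435 to 90998 in Myotube7 to 9 and, without overlap, to 98660 to 105267 in Myotube10 to 12. In the mean of both sets 2 of 7 tested were higher and 2 lower. Endothelial markers summed to 977 to 1135 under the wildtype label and to 1309 to 1611 under the knockout label, with 3 of 6 higher. Myoblast markers summed to 520 to 613 and to 384 to 521, with 1 of 5 higher and 2 lower. Immune markers stayed at 20.5 to 59.1 in all, with Ptprc and Adgre1 at or near 0, and of the adipocyte markers only Fabp4 was tested, with Adipoq at or near 0. Fabp4 did not pass between labels but rose between sets in both, by 0.97 and 0.92 on the log2 scale. These libraries are bulk RNA, in which fewer cells of a type and less RNA per cell cannot be told apart. Between sets, the hypoxia-induced genes moved with Nfil3, Bhlhe40 and Bhlhe41: 16 of 16 rose in both labels, with median log2 differences of 1.81 and 1.97, and their part was not tested either. Egln3, the oxygen-sensing hydroxylase gene, went from 241 to 270 normalized counts in Myotube1 to 3 to 2199 to 2258 in Myotube7 to 9.

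Neighbouring genes share bases with 2 of the members that fell. Among members that did not pass between labels in the mean of both sets, Bhlhe41 (1280 bases), Tef (193) and Bhlhe40 (118) also share exon bases with opposite-strand genes. Exons of Nr1d1 and Thra, which encodes thyroid hormone receptor alpha on the opposite strand, overlap by 263 bases, and exons of Dbp and Sphk2, a sphingosine kinase gene on the opposite strand, by 539 bases. The library kit keeps strand, but no source used here says whether counting used it, so shared reads cannot be told apart. Thra rose with the knockout label (log2 difference 0.38, limma adjusted p = 0.00282), opposite to Nr1d1, and Sphk2 fell (-0.46, adjusted p = 0.00313), as did Dbp.

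The genes with the profile most like each member over the 12 libraries were sought among 8963 named genes with a mean of 50 or more, by the root mean square distance of log2 values centred on their mean. For Nr1d2, whose own amplitude was 1.76, they were Ppp1r3a (0.309), Fam13a (0.355) and Alpk2 (0.379). For Bhlhe40, with an amplitude of 0.957, they were Gys1 (0.153), Vldlr (0.156) and Mxi1 (0.180). For Bhlhe41 (0.909) they were Map3k1 (0.172), Rsbn1 (0.189) and Cdkn1b (0.243), and for Nfil3 (0.642) Ptgs2 (0.131), Hmox1 (0.143) and H2-Q6 (0.157). Tef, with an amplitude of 0.184, lay nearest to Sept8 (0.0790), Timm50 (0.0802) and Ift20 (0.0886). These distances are a larger part of its amplitude than for the other members searched. Nr1d1, Dbp and Hlf had means below 50 and were not searched.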

How the data were processed

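RNA-seq libraries were stranded total RNA, per the labels' protocols. The authors deposited a normalized signal, read counts divided by library factors. Per the submitters' processing notes, Trimmomatic 0.33, STAR 2.5.2, RSEM 1.3.3 and DESeq2 were used with mm10. No source used here names the counting annotation. All deposited values (100% within 1e-06) were whole reads divided by 1 factor per library. A floor of 3 reads equalled 2.12 to 5.85 normalized counts. No pair of libraries sharing a label was alike within sampling noise (lowest chi-square per degree of freedom 3.09). Within runs of titles this value was at most 5.57, except for Myotube2, at 12.2 from Myotube1 and 12.9 from Myotube3. Pairs across sets lay at 12.6 to 23.6.

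Identifiers were named from GENCODE M21 (GRCm38), 19953 of 20201, and exon lengths were taken from it. limma 3.58.1 (trended prior, two-sided) was fitted to log2(normalized count + 1) in 12553 genes with a mean of 10 or more, with 1 mean for each of 4 runs of titles and Benjamini-Hochberg adjustment, called at 0.05; 7648 genes lay below. Confidence intervals are at 95%. Alternatives were pseudocounts of 0.5 and 10, no filter and a minimum mean of 50, upper-quartile scaling, 7 abundant genes left out, no set term, edgeR 4.0.16 and DESeq2 1.42.0 on recovered reads, and each library left out. Leaving out single libraries for Ciart and for the Nr1d1 read ratio was added after seeing the data. Steps were tested on simulated data. The members and gene lists were chosen with earlier results of these data known. Named beside the members are the tested clock activators and repressors and up to 2 rises and 2 falls called in each other list. Also named are Thra and Sphk2, which share exon bases with members that fell, Egln3, and the 3 nearest profiles. Thra, Sphk2 and mt-Co2 were named after their values were seen. Some list genes are not reported here. R 4.3.3 and Python 3.11.15 were used.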

Additional observations from a re-analysis of the deposited data

Results flagged for a closer look

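Within the 6 libraries of 1 label, 3 of 42 gene and label groups had a library standing apart by Dixon's criterion. For 6 values from a single normal distribution, chance gives this in about 1 in 20 groups. Each group here pools both sets, so that rate does not hold for genes that separate by set, where a flag is hard to reach. Ciart, at 0 in Myotube2, was not flagged. Dbp was lowest among the libraries labelled wildtype in Myotube8, at 34.7 normalized counts, where the others lay at 48.0 to 53.3. Per3 was highest among the libraries labelled wildtype in Myotube2, at 74.3 normalized counts, and the others reached 29.9. Arntl2 was highest among the libraries labelled knockout in Myotube4, at 33.8 normalized counts, and the others reached 17.4.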

How the results depend on the processing

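Of 835 values of the members over 21 alternative settings, 807 kept their direction and their side of the threshold. Of the others, 20 came to pass, 1 no longer passed (Nfil3, mean of both sets, without a set term) and 7 changed sign. Where a left-out library lay outside the runs compared, the log2 difference could not change, only its p-value. Such values are counted among the 835 and kept their direction by construction. Left without the abundant genes, Tef turned to -0.040 in the mean of both sets and -0.12 in Myotube10 to 12 against 7 to 9, and Nr1d2 to -0.030 in wildtype between sets. The median of all genes moved there to -0.16, -0.15 and -0.085 in these 3 comparisons. Leaving out 1 library each, the interaction of Bhlhe40 ran from -0.17 to 0.042 and the set difference of Dbp in wildtype from -0.23 to 0.078. None of these values passed. Genes called in the mean of both sets were 2416 without a set term, where 3857 were called with it. Genes called for the interaction were 0 with a pseudocount of 10, 0 with edgeR, 31 with DESeq2, and 1 to 4 leaving out 1 library each. Leaving out 1 library each gave 1568 to 2405 calls in Myotube4 to 6 against 1 to 3, lowest without Myotube4 and highest without Myotube2. It gave 1190 to 3077 in Myotube10 to 12 against 7 to 9, lowest without Myotube7 and highest without Myotube2. Leaving out the abundant genes gave 755 higher and 2139 lower calls in the former (1357 and 1001 before) and 544 and 1795 in the latter (1110 and 959 before). The cause was not tested. No paired analysis was possible because the replicate numbers follow accession order and the labels share none across groups. Hlf rests on 0 to 31 reads per library, and Nr1d1 on 2 and 3 reads in Myotube10 and Myotube11.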
